A study of Homo sapiens with 8 samples.

Results

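The genes described here build the machinery that copies DNA. They are 49 genes named by symbol. All have a part in licensing replication origins, unwinding the helix, synthesizing and maturing the strands, reassembling chromatin behind the fork or supplying deoxynucleotides. The rule that selects them uses their function and no measured value, but they were chosen with earlier results of these data known. Each of the 49 symbols had 1 entry in a table of 60332 genes, and all 49 reached the mean level of 1 FPKM that the 15175 genes tested had to reach. FPKM (fragments per kilobase of transcript and per unit of mapped fragments) is a level corrected for transcript length and sequencing depth.

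The libraries come from a pair of Ewing sarcoma cell lines, SK-N-MC and RD-ES, in which a lentivirus carried dCas9-KRAB, a cutting-dead Cas9 fused to a repressor domain. In eKD2 cells it was guided to a GGAA microsatellite enhancer upstream of LOXHD1. Control cells received the same virus without that guide according to the labels, whereas the text of the study calls the comparison cells parental. All cells were puromycin-selected pools, not clones, used within a few passages, and each line and condition has 2 libraries, which the study calls biological duplicates, so the 4 groups hold 8 libraries of poly-A RNA.

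Before a cell enters S phase, the origin recognition complex (ORC), CDC6 and CDT1 load the ring-shaped MCM2-7 helicase onto origins, and geminin (GMNN) blocks CDT1 from doing so again within the same cycle. CDC45 and the GINS complex then join the ring to form the active helicase. Polymerase alpha-primase lays down primers, replication factor C (RFC) loads the sliding clamp PCNA, and polymerases epsilon and delta extend the leading and lagging strands while replication protein A (RPA) coats the exposed single strands. Many of these genes are transcribed in late G1 and S phase through E2F binding sites, so their mRNA level in a cell population is known to depend on how many cells are cycling. In bulk RNA, fewer cells in S phase and less RNA per cell cannot be told apart.

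LOXHD1, whose upstream enhancer was targeted, read 21.4 and 21.2 FPKM in the RD-ES controls against 1.04 and 1.02 FPKM after targeting. The SK-N-MC controls read 159 and 169 FPKM against 11.0 and 12.0 FPKM after targeting. All 10 Ewing sarcoma markers examined had a mean of at least 1 FPKM in each group. The leukocyte markers CD3E and SPI1 were under 0.1 FPKM in every library, whereas PTPRC stood between 19.2 and 22.6 FPKM in SK-N-MC. Read totals are not given in the table, and relative depths recovered from the steps of low values ran from 0.578 to 2.32 times that of RD-ES control library 1. The lowest of these was RD-ES eKD2 library 1, which also stood apart in the epithelial genes KRT8 (8.24 FPKM, against 1.08 to 2.13 in the other 7) and CDH1 (3.50 FPKM, against 0.0369 to 0.168). RD-ES medians over the 49 genes or over a list are therefore also given without it where they moved by more than 1.5 times or changed sign.

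Transcription of many replication genes runs through a short promoter element that E2F factors bind. Its consensus was searched for as TTTCCCGC, TTTGGCGC, TTTCGCGC and TTTGCCGC on both strands, beside CCAAT, the box bound by NF-Y, and TTTGAA, the letters of the cell cycle homology region, in RefSeq promoter windows of GRCh38.p14 that run from 250 bases before to 50 bases after the annotated start. Windows were found for 43 of the 49 genes. At least 1 of the 4 E2F forms occurred in 20 of these 43 windows, or 46.5%, against 3.33% of all 27305 windows and 5.47% of the 10014 windows of genes tested here. CCAAT occurred in 58.1% of the members' windows and in 35.7% of all windows, and TTTGAA in 2.33% and 15.4%. These letters describe the windows and do not show that a factor was bound. Nor does the absence of these exact letters show that a gene lacks an E2F site.

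Promoters of 6 genes are shown because the results below turn on these genes and because they differ in this element. Each is 160 bases that end at the base before the annotated start, read 5′ to 3′ on the strand of the gene, with E2F forms, CCAAT and their reverse complements in capitals. MCM6 (chr2:135876444-135876603, minus strand) holds pairs of overlapping E2F forms with CCAAT boxes. POLA2 (chr11:65261802-65261961, plus strand) and RFC3 (chr13:33817989-33818148, plus strand) hold 1 form each. PCNA (chr20:5126623-5126782, minus strand) holds 1 form with several CCAAT boxes. RRM2 (chr2:10122579-10122738, plus strand) holds CCAAT boxes alone, and CHAF1B (chr21:36385232-36385391, plus strand) holds neither.
MCM6: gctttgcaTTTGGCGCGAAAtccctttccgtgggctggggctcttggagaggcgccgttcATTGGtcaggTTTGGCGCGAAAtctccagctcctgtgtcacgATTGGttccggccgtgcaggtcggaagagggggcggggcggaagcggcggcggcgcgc
POLA2: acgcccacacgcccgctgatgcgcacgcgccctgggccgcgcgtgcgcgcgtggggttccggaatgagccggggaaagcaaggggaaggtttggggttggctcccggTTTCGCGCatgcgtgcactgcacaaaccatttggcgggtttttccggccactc
RFC3: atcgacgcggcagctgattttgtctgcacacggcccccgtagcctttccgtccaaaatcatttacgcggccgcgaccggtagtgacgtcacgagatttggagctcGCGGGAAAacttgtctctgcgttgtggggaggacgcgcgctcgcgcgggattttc
RRM2: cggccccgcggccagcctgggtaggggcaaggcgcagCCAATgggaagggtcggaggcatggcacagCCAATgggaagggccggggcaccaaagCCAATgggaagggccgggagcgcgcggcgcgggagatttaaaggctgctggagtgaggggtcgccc
CHAF1B: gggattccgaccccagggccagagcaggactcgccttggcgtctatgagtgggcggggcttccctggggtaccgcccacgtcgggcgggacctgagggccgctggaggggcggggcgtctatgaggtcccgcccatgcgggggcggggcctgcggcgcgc
PCNA: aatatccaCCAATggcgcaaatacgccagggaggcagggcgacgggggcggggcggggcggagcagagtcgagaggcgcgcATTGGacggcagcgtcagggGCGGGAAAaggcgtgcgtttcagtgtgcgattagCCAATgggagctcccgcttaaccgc

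Across both lines the level of these genes varied widely. The highest mean over the 8 libraries was 608 FPKM for MCM4, followed by 319 FPKM for POLD2, 240 FPKM for PCNA and 233 FPKM for RRM2, and the lowest was 11.4 FPKM for GINS3. By complex, the median of the means was 36.5 FPKM for the 9 licensing genes, 53.8 FPKM for the 13 helicase genes and 56.4 FPKM for the 9 polymerase and primase genes. It was higher, 144 FPKM and 172 FPKM, for the 6 clamp and clamp loader genes and the 4 nucleotide supply genes.

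In SK-N-MC, most replication genes had lower values in eKD2 cells, by small amounts. Of the 49 genes, 43 had a lower and 6 a higher mean on the log2(FPKM + 1) scale, on which all log2 fold changes here are given (single genes with ± the standard error of the fit), with a median of -0.24, while 51.1% of all genes tested were below 0 and their median was -0.0049. None of the 49 passed the test after adjustment over all genes tested (limma, Benjamini-Hochberg adjusted p under 0.05), which 0.323% of all genes tested passed, and the lowest adjusted p was 0.105, for POLA2. At an unadjusted p under 0.05, 20 of the 49 were lower and 1 was higher, where 7.29% of all genes tested were lower and 5.71% higher. Both eKD2 libraries lay below both control libraries for 34 genes and above them for 4 (GINS1, ORC6, PCNA and RPA3), against 25.1% and 22.2% of all genes tested. The 49 genes together made up 0.689% and 0.695% of the summed FPKM in the control libraries, and 0.596% and 0.597% in the eKD2 libraries. The summed level of the 5 epithelial markers was also lower in SK-N-MC eKD2, at 40.7 to 42.2 FPKM against 56.7 to 60.9 FPKM in control, of which KRT18 made up most, and its part in these values was not tested. Leaving out 1 library at a time gave between 14 and 26 genes lower at an unadjusted p under 0.05 and a median between -0.27 and -0.22.

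RD-ES showed no common direction. Of the 49 genes, 23 had a lower and 26 a higher mean in eKD2 cells, with a median of 0.0077 beside 0.031 for all genes tested, of which 42.0% were below 0. None passed the adjusted test, which 0.343% of all genes tested passed, and the lowest adjusted p was 0.181, for ORC2. With no adjustment, p was under 0.05 for 3 genes on the lower side (ORC1, MCM6 and GINS4) and 3 on the higher (ORC2, ORC4 and PRIM1), where 3.79% of all genes tested were lower and 8.49% higher. Scaling each library to the same median turned this split into 7 lower and 1 higher and the median into -0.064. Without eKD2 library 1, the library that stood apart, the counts were 2 lower and 1 higher and the median was -0.017. Without control library 1 there was 1 gene on each side, and without eKD2 library 2 there were 2 lower and 6 higher. Leaving out SK-N-MC control library 2, SK-N-MC eKD2 library 1 or SK-N-MC eKD2 library 2, which enter only the estimate of the spread, left 1 gene lower. The eKD2 libraries lay below the controls for 12 genes and above them for 12, against 15.1% and 24.2% of all genes tested.

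**Figure D1:**
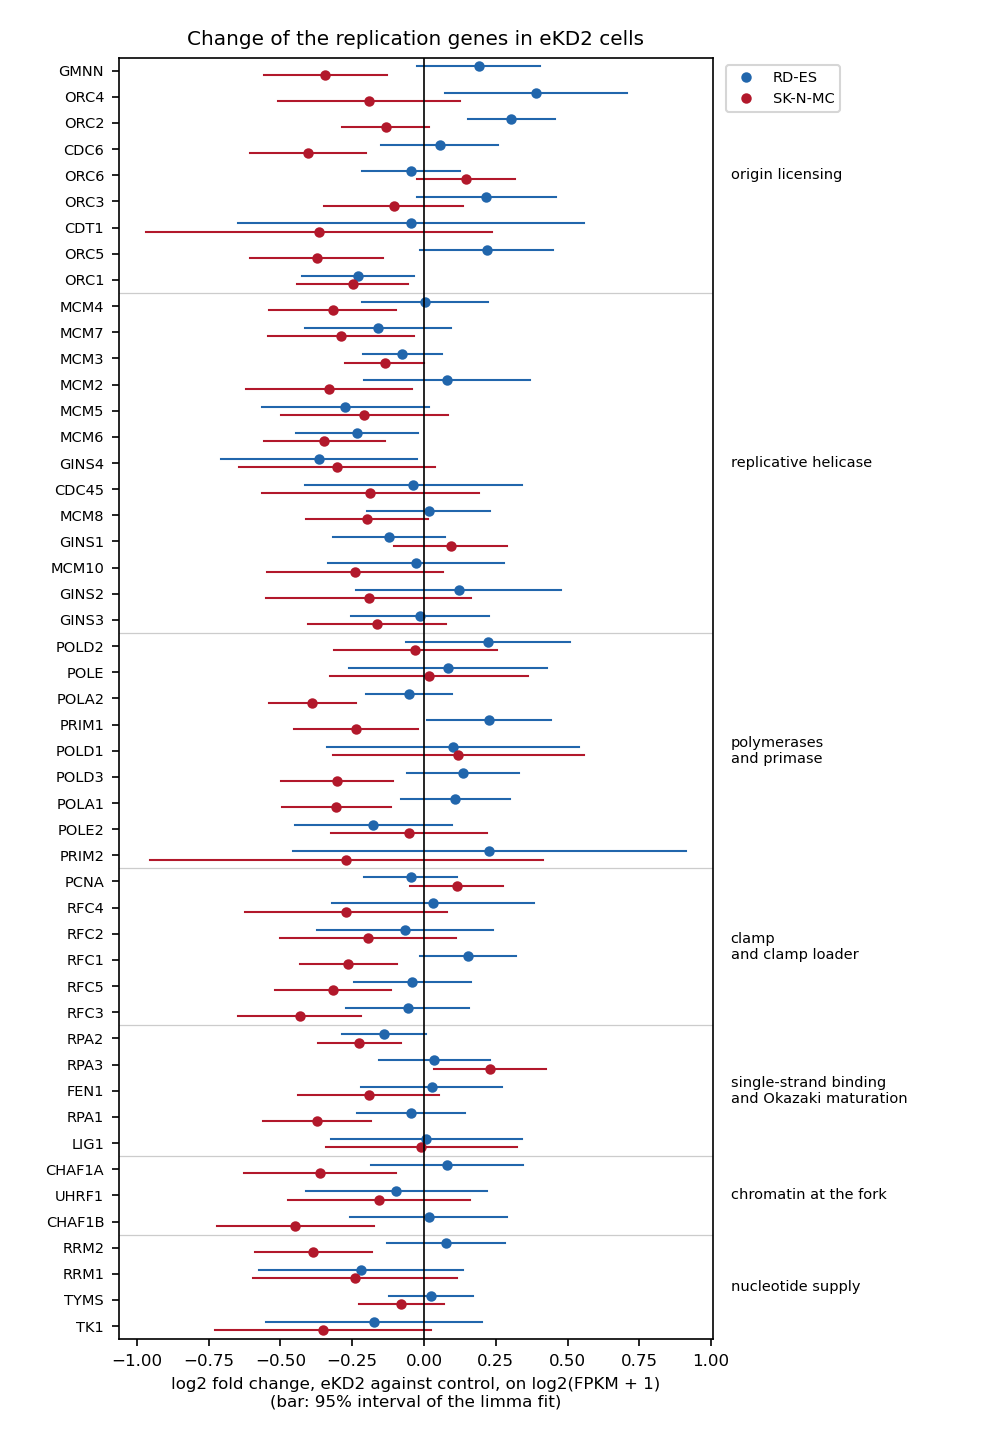
Log2 fold change of each of the 49 genes in eKD2 against control cells, on log2(FPKM + 1), in SK-N-MC (red) and RD-ES (blue), with the 95% interval of the limma fit as a bar and the genes grouped by complex. In SK-N-MC 43 of the 49 points lie left of 0, and in RD-ES 23 do.

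The lines were then compared with each other through the difference between their eKD2 changes, SK-N-MC minus RD-ES, an interaction term in the same fit. This difference was below 0 for 41 of the 49 genes and above 0 for 8, with a median of -0.22, where 56.3% of all genes tested were below 0 and the median was -0.049. It passed the adjusted test for none of the 49 genes and for 0.244% of all genes tested, and the lowest adjusted p among the 49 was 0.169, for ORC2. At an unadjusted p under 0.05 it was below 0 for 17 genes and above 0 for none, against 9.16% and 4.38% of all genes tested. The count of 17 became 10 without RD-ES control library 1 and 11 without SK-N-MC control library 2. Scaling to the same median left 13 genes and a median difference of -0.14. As the plot of medians by library shows, the pair of SK-N-MC eKD2 libraries was lower than its controls in all 7 groups of genes, at -0.26 and -0.22 over the 49 genes, and the RD-ES eKD2 libraries lay at 0.028 and -0.017.

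**Figure D2:**
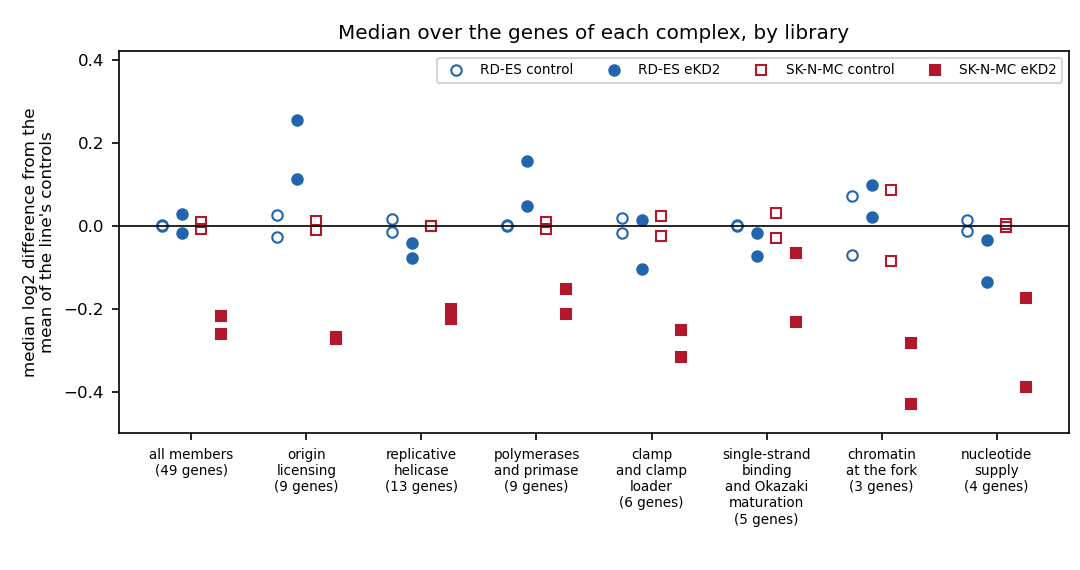
Median log2 difference of each library from the mean of its line's control libraries, over all 49 genes and over each complex, with open symbols for control and filled symbols for eKD2 libraries (circles RD-ES, squares SK-N-MC). The SK-N-MC eKD2 squares lie below 0 in every column, and the RD-ES eKD2 circles lie highest for origin licensing, at 0.25 and 0.11.

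Origin licensing held the genes with the widest gaps between the lines. In SK-N-MC 8 of its 9 genes had a lower and 1 a higher mean, with a median of -0.25, and in RD-ES 3 were lower and 6 higher, with a median of 0.19. The median difference between lines was -0.44, and 5 of the 9 genes had a difference below 0 at an unadjusted p under 0.05. That median was not particular to licensing. It was also -0.44 for the 4 genes of polymerase alpha-primase and for the 3 genes of chromatin at the fork. The RD-ES median for licensing was 0.11 without eKD2 library 1 and 0.12 with libraries scaled to the same median.

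CDC6, the ATPase that recruits the helicase to ORC, stood at 61.1 and 67.3 FPKM in SK-N-MC control against 47.9 and 48.5 FPKM in eKD2. In RD-ES it stood at 51.8 and 54.7 FPKM in control against 58.2 and 52.6 FPKM in eKD2. The groups were apart in SK-N-MC and overlapped in RD-ES. Its log2 fold change in SK-N-MC was -0.40 ± 0.083 (adjusted p = 0.169), and the difference between lines was -0.46 ± 0.12 (adjusted p = 0.227).

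Geminin, the inhibitor of CDT1, was measured at 96.8 and 92.2 FPKM in SK-N-MC controls against 78.0 and 70.7 FPKM in eKD2 cells. The RD-ES libraries held 86.4 and 81.8 FPKM in control against 102 and 90.5 FPKM in eKD2. The eKD2 libraries thus lay below the controls in SK-N-MC and above them in RD-ES. The log2 fold changes were -0.34 ± 0.088 in SK-N-MC (adjusted p = 0.214) and 0.19 ± 0.088 in RD-ES (adjusted p = 0.452), and their difference was -0.53 ± 0.12 (adjusted p = 0.206).

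The subunits ORC2, ORC4 and ORC5, which belong to the core of ORC, shared that crossed order of libraries. ORC2 read 87.1 and 85.9 FPKM in SK-N-MC control against 78.2 and 79.2 FPKM in eKD2, and 35.4 and 35.0 against 45.1 and 42.4 FPKM in RD-ES. ORC4 read 69.7 and 68.7 against 66.5 and 55.0 FPKM in SK-N-MC and 55.2 and 55.2 against 81.0 and 65.2 FPKM in RD-ES. ORC5 read 26.8 and 23.9 against 20.2 and 18.4 FPKM in SK-N-MC and 21.6 and 19.9 against 24.9 and 23.6 FPKM in RD-ES. In each of the 3, eKD2 was the lower group in SK-N-MC and the higher one in RD-ES, and in no case did libraries of a line overlap. The difference between lines was -0.44 ± 0.088 for ORC2 (adjusted p = 0.169), -0.58 ± 0.18 for ORC4 (adjusted p = 0.283) and -0.59 ± 0.13 for ORC5 (adjusted p = 0.206). ORC2 and ORC4 had the largest log2 fold changes of the 49 genes on the higher side in RD-ES, 0.30 ± 0.062 and 0.39 ± 0.13, and ORC5 had -0.37 ± 0.095 in SK-N-MC. ORC4 shares exon bases with ACVR2A and MBD5 on the other strand, and the library kit did not mark strand.

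ORC1, the subunit whose level follows the cell cycle in human cells, was lower in each line with an unadjusted p under 0.05. SK-N-MC held 14.1 and 15.1 FPKM in control against 11.7 and 12.6 FPKM in eKD2, and RD-ES held 30.4 and 29.1 against 24.9 and 25.5 FPKM. No control and eKD2 library overlapped in either line. The log2 fold changes were -0.25 ± 0.080 and -0.23 ± 0.080 (adjusted p = 0.293 and 0.337), and the difference between them had an adjusted p of 0.964.

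The other licensing genes did not pass an unadjusted p of 0.05 in SK-N-MC, in RD-ES or in the difference. ORC3 had 32.2 and 30.6 FPKM in SK-N-MC control against 30.7 and 27.7 FPKM in eKD2, with overlap. In RD-ES it had 31.9 and 30.7 against 39.4 and 33.8 FPKM, without overlap. All 4 of ORC2 to ORC5 thus had higher means in RD-ES eKD2. CDT1, the factor that escorts the helicase to origins, had 30.5 and 38.1 FPKM in SK-N-MC control against 24.4 and 28.2 FPKM in eKD2, with a wide spread within each group. ORC6 was the licensing gene with the higher mean in SK-N-MC eKD2, at 25.0 and 24.1 FPKM in control against 27.9 and 26.6 FPKM in eKD2.

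**Figure D3:**
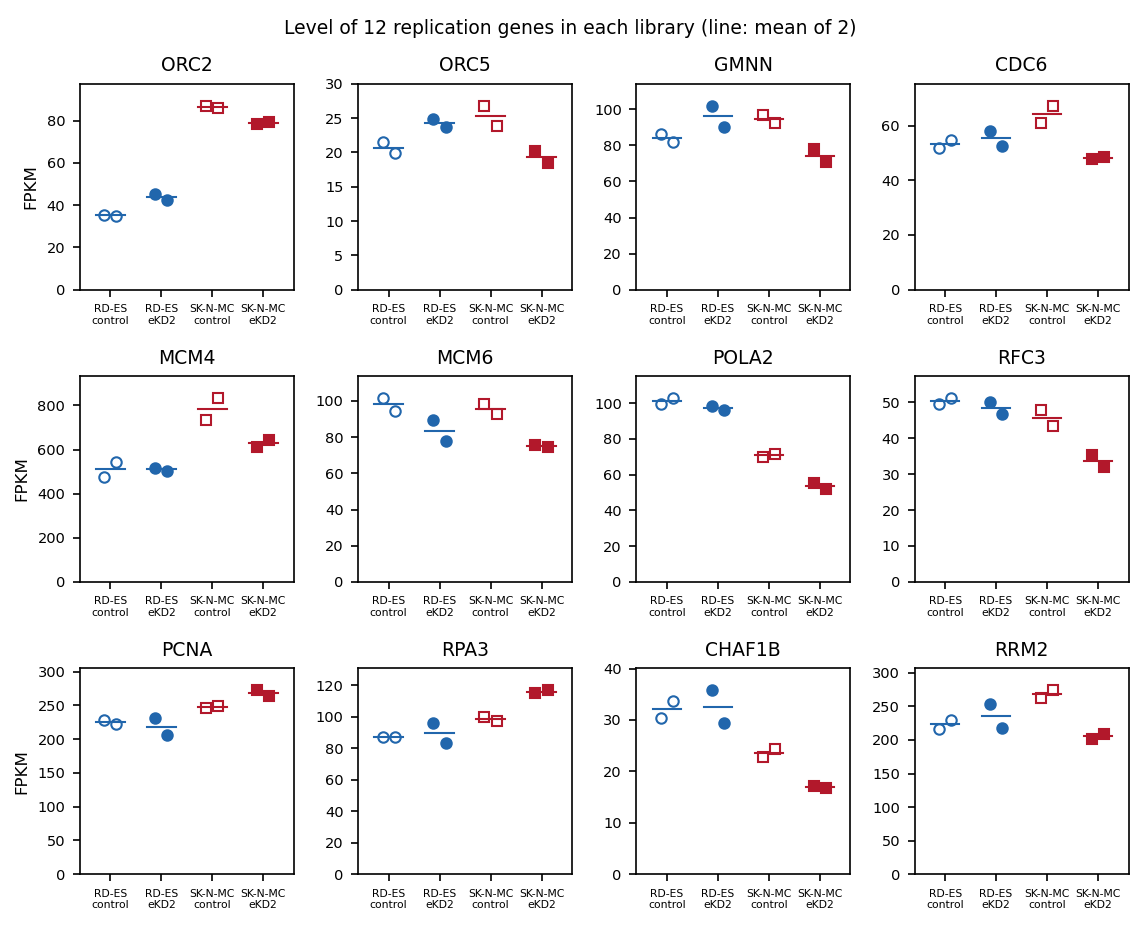
FPKM of 12 of the 49 genes in each of the 8 libraries, with a line at the mean of each group of 2 and the vertical axis starting at 0 in every panel. The SK-N-MC eKD2 libraries lie below the SK-N-MC controls except for PCNA and RPA3, and for ORC2, ORC5 and GMNN the RD-ES eKD2 libraries lie above the RD-ES controls.

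All 6 subunits of the MCM2-7 ring, the motor of the replicative helicase, had lower means in SK-N-MC eKD2 (4 of them with an unadjusted p under 0.05), with a median log2 fold change of -0.30. In RD-ES 4 of the 6 were lower and 2 higher, 1 of them lower with an unadjusted p under 0.05, with a median of -0.12, which was -0.066 without RD-ES eKD2 library 1. The median difference between lines was -0.12, beside -0.44 for the licensing genes, and 2 of the 6 had a difference below 0 at an unadjusted p under 0.05.

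MCM4, the most abundant member, stood at 736 and 834 FPKM in SK-N-MC control against 612 and 644 FPKM in eKD2. In RD-ES it stood at 474 and 546 FPKM in control against 516 and 503 FPKM in eKD2. The SK-N-MC groups were apart, and the RD-ES eKD2 values lay between the control values. Its log2 fold change was -0.32 ± 0.090 in SK-N-MC (adjusted p = 0.249) and 0.0023 ± 0.090 in RD-ES (adjusted p = 1), and the difference was -0.32 ± 0.13 (adjusted p = 0.356). MCM2 followed the same course, with 141 and 169 FPKM in SK-N-MC control, 117 and 129 FPKM in SK-N-MC eKD2, and 111 and 117 against 111 and 131 FPKM in RD-ES. Its log2 fold change in SK-N-MC was -0.33 ± 0.12 (adjusted p = 0.335) and the difference between lines was -0.41 ± 0.17 (adjusted p = 0.368).

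MCM6, whose promoter carries the paired E2F forms, was lower in each line with an unadjusted p under 0.05. It read 98.6 and 93.0 FPKM in SK-N-MC control against 75.6 and 74.5 FPKM in eKD2, and 102 and 94.6 against 89.3 and 77.7 FPKM in RD-ES. Neither line showed overlap between its groups. The log2 fold changes were -0.35 ± 0.086 and -0.23 ± 0.086 (adjusted p = 0.209 and 0.366). MCM7 read 152 and 151 against 114 and 135 FPKM in SK-N-MC and 228 and 252 against 203 and 226 FPKM in RD-ES, again with both eKD2 libraries lower in each line. Its log2 fold change in SK-N-MC was -0.29 ± 0.10 (adjusted p = 0.339). MCM7 shares exon bases with AP4M1 on the other strand. MCM3 and MCM5 also had both eKD2 libraries below both controls in each line, without reaching an unadjusted p of 0.05. For MCM3 these were 167 and 172 against 150.1 and 157 FPKM in SK-N-MC and 145 and 142 against 134 and 139 FPKM in RD-ES.

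The partners that turn the ring into an active helicase were less uniform. The 4 GINS subunits had a median log2 fold change of -0.18 in SK-N-MC and -0.068 in RD-ES (-0.10 without eKD2 library 1), and none reached an unadjusted p of 0.05 in SK-N-MC. GINS4 read 75.4 and 75.0 against 64.2 and 57.6 FPKM in SK-N-MC and 46.6 and 42.6 against 29.8 and 39.6 FPKM in RD-ES. It was lower in both lines without overlap, with a log2 fold change of -0.36 ± 0.14 in RD-ES (adjusted p = 0.384), the largest on the lower side there. GINS1 went the other way in SK-N-MC, at 22.9 and 22.8 FPKM in control against 24.9 and 24.0 FPKM in eKD2, while RD-ES held 29.6 and 28.4 against 28.1 and 25.1 FPKM. GINS1 shares exon bases with NINL on the other strand, which had a mean of 27.7 FPKM. CDC45, GINS2, GINS3, MCM10, which acts when the loaded helicase is activated, and the repair helicase MCM8 had lower SK-N-MC means at unadjusted p of 0.05 or more. Of these, MCM8 read 29.5 and 27.7 FPKM in SK-N-MC control against 25.3 and 24.3 FPKM in eKD2, and CDC45 read 64.7 and 70.6 against 55.7 and 63.1 FPKM.

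Among the polymerases, the median of the priming enzyme was lower than that of the 2 elongating enzymes in SK-N-MC, and their ranges overlapped. All 4 genes of polymerase alpha-primase had lower means (3 of them with an unadjusted p under 0.05), with a median of -0.29 and a range from -0.39 to -0.24. The 5 genes of polymerases delta and epsilon had a median of -0.030, 3 lower and 2 higher, with 1, POLD3, lower at an unadjusted p under 0.05. They ran from -0.30 for POLD3, inside the range of the first set, to 0.12. Their median was 0.076 without SK-N-MC control library 2 and 0.091 without SK-N-MC eKD2 library 1, and -0.10 and -0.084 without the other SK-N-MC control and eKD2 libraries. The difference between these sets of genes was not tested. In RD-ES the medians were 0.17 and 0.10, and without eKD2 library 1 they were -0.011 and 0.14. Over all 9 polymerase and primase genes the RD-ES median was 0.11, without that library it was 0.047, and with libraries scaled to the same median it was 0.039.

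POLA2, the regulatory subunit of polymerase alpha, had the smallest unadjusted p of the 49 genes in SK-N-MC. It is annotated on chromosome 11 between 65029233 and 65073060 of hg19, the build of the table. Its level was 70.1 and 71.4 FPKM in SK-N-MC control against 55.4 and 52.2 FPKM in eKD2, and 99.3 and 103 against 98.7 and 96.2 FPKM in RD-ES. The SK-N-MC gap was several times the spread between libraries of a group, whereas the RD-ES groups were separated narrowly. The log2 fold change in SK-N-MC was -0.39 ± 0.062 (95% interval -0.54 to -0.24; adjusted p = 0.105), and the difference between lines was -0.34 ± 0.087 (adjusted p = 0.227).

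POLA1, the catalytic subunit, read 25.6 and 25.0 against 21.0 and 19.5 FPKM in SK-N-MC and 29.9 and 29.8 against 33.7 and 30.9 FPKM in RD-ES. PRIM1, the catalytic subunit of primase, read 79.3 and 76.9 against 67.7 and 64.6 FPKM in SK-N-MC and 71.4 and 67.7 against 88.1 and 75.6 FPKM in RD-ES. Both had eKD2 below control in SK-N-MC and above control in RD-ES without overlap. Log2 fold changes in SK-N-MC were -0.31 ± 0.078 for POLA1 and -0.24 ± 0.088 for PRIM1 (adjusted p = 0.214 and 0.346), and the differences between lines were -0.42 ± 0.11 and -0.46 ± 0.13 (adjusted p = 0.231 and 0.233). PRIM1 had a log2 fold change of 0.23 ± 0.088 in RD-ES (adjusted p = 0.387). PRIM2, the other primase subunit, varied most between libraries of a group, at 22.5 and 17.6 FPKM in SK-N-MC control and 31.3 and 18.3 FPKM in RD-ES eKD2.

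POLD3, an accessory subunit of polymerase delta, was the gene of the elongating enzymes with an unadjusted p under 0.05. It read 46.4 and 45.9 against 35.0 and 39.7 FPKM in SK-N-MC and 56.5 and 53.6 against 60.2 and 60.9 FPKM in RD-ES, the crossed order again. Its log2 fold change in SK-N-MC was -0.30 ± 0.080 (adjusted p = 0.226) and the difference between lines -0.44 ± 0.11 (adjusted p = 0.227). POLD2, the most abundant polymerase gene, held 337 and 391 FPKM in SK-N-MC control against 327 and 387 FPKM in eKD2, and 271 and 241 against 289 and 309 FPKM in RD-ES. The SK-N-MC groups overlapped almost fully, and the log2 fold change there was -0.030 ± 0.12 (adjusted p = 0.965), with a sign that turned when single libraries were left out. The catalytic subunits also overlapped in SK-N-MC, POLE at 72.7 and 82.2 against 72.9 and 84.1 FPKM and POLD1 at 45.1 and 61.8 against 54.1 and 61.1 FPKM. POLE2, a further subunit of polymerase epsilon, read 31.1 and 27.8 against 30.4 and 26.3 FPKM.

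The sliding clamp and its loader had opposite signs in SK-N-MC. All 5 RFC subunits had lower means, 3 at an unadjusted p under 0.05, with a median of -0.27, and in RD-ES 3 were lower and 2 higher with a median of -0.040, or -0.098 without eKD2 library 1. PCNA was at 246 and 248 FPKM in SK-N-MC control against 272 and 263 FPKM in eKD2, and at 228 and 223 against 231 and 207 FPKM in RD-ES. Both SK-N-MC eKD2 libraries were the higher ones for PCNA, with a log2 fold change of 0.11 ± 0.066 (adjusted p = 0.524), and the RD-ES groups overlapped.

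RFC3, a small subunit of the loader, was measured at 48.0 and 43.5 FPKM in SK-N-MC control against 35.3 and 31.9 FPKM in eKD2. In RD-ES it had 49.6 and 51.2 against 50.2 and 46.7 FPKM, with overlap. The log2 fold change in SK-N-MC was -0.43 ± 0.088 (adjusted p = 0.169) and the difference between lines -0.38 ± 0.12 (adjusted p = 0.294). RFC1, the large subunit, read 185 and 195 against 165 and 152 FPKM in SK-N-MC and 108 and 103 against 115 and 120.1 FPKM in RD-ES, below control in the first and above it in the second. Its log2 fold change in SK-N-MC was -0.26 ± 0.069 (adjusted p = 0.222), and the difference was -0.42 ± 0.097 (adjusted p = 0.206). RFC5 read 57.2 and 61.2 against 44.7 and 50.0 FPKM in SK-N-MC, a log2 fold change of -0.32 ± 0.083 (adjusted p = 0.222), and 86.3 and 92.4 against 85.0 and 88.7 FPKM in RD-ES. It shares exon bases with WSB2 on the other strand. RFC4 had 284 and 287 FPKM in SK-N-MC control against 235 and 238 FPKM in eKD2, and RFC2 125 and 149 against 107 and 133 FPKM, neither at an unadjusted p under 0.05.

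The 3 RPA subunits, which act as 1 heterotrimer, had unlike signs in SK-N-MC. RPA1, the large DNA-binding subunit, read 77.1 and 80.4 FPKM in control against 57.2 and 64.3 FPKM in eKD2, and RPA2 read 96.5 and 95.5 against 81.6 and 82.4 FPKM. RPA3, the smallest subunit, read 99.7 and 97.5 FPKM in control against 115 and 117 FPKM in eKD2. No groups overlapped in SK-N-MC, with RPA1 and RPA2 lower in eKD2 and RPA3 higher. The log2 fold changes were -0.37 ± 0.077, -0.22 ± 0.060 and 0.23 ± 0.079 (adjusted p = 0.17, 0.227 and 0.317). RPA3 was the gene counted as higher above, and it no longer reached an unadjusted p of 0.05 when any 1 of the 4 SK-N-MC libraries was left out. It shares exon bases with UMAD1 on the other strand, and RPA1 with SMYD4. In RD-ES, RPA1 was at 94.7 and 99.0 against 92.0 and 95.7 FPKM, RPA2 at 196 and 183 against 169 and 176 FPKM and RPA3 at 87.2 and 87.3 against 96.2 and 83.3 FPKM. RPA2 alone of these had its RD-ES groups apart, with eKD2 lower. The difference between lines for RPA1 was -0.33 ± 0.11 (adjusted p = 0.298).

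FEN1, the flap nuclease, and LIG1, the ligase that seals Okazaki fragments, did not reach an unadjusted p of 0.05 in SK-N-MC, in RD-ES or in the difference. FEN1 read 61.7 and 68.8 FPKM in SK-N-MC control against 52.0 and 62.2 FPKM in eKD2. LIG1 read 77.4 and 93.0 FPKM against 79.4 and 89.5 FPKM, with full overlap.

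Chromatin assembly factor 1, which deposits histones on new DNA, had both subunits measured here lower in SK-N-MC at an unadjusted p under 0.05. CHAF1B read 22.7 and 24.3 FPKM in control against 17.2 and 16.7 FPKM in eKD2, and 30.5 and 33.7 against 35.8 and 29.4 FPKM in RD-ES. CHAF1A read 54.2 and 65.6 against 43.6 and 48.8 FPKM in SK-N-MC and 46.2 and 48.0 against 50.4 and 49.2 FPKM in RD-ES. In SK-N-MC neither gene overlapped between groups, although the control libraries of CHAF1A were wide apart. CHAF1B had the largest log2 fold change of the 49 genes in SK-N-MC, -0.45 ± 0.11 (adjusted p = 0.21), and CHAF1A had -0.36 ± 0.11 (adjusted p = 0.265). The differences between lines were -0.46 ± 0.16 and -0.44 ± 0.15 (adjusted p = 0.304 and 0.308). UHRF1, which guides maintenance methylation at the fork, read 22.3 and 25.3 FPKM in SK-N-MC control against 19.7 and 22.9 FPKM in eKD2, with overlap.

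All 4 nucleotide supply genes had lower means in SK-N-MC eKD2, with a median log2 fold change of -0.30. In RD-ES 2 were lower and 2 higher, with a median of -0.075, or -0.035 without eKD2 library 1. The highest mean level among them was that of RRM2, the S-phase subunit of ribonucleotide reductase. It stood at 263 and 274 FPKM in SK-N-MC control against 202 and 208 FPKM in eKD2, and at 217 and 229.8 against 254 and 218 FPKM in RD-ES. The SK-N-MC groups were well apart and the RD-ES groups overlapped. The log2 fold change in SK-N-MC was -0.39 ± 0.084 (adjusted p = 0.18), and the difference between lines was -0.46 ± 0.12 (adjusted p = 0.227). Thymidine kinase TK1 read 73.8 and 73.2 FPKM in SK-N-MC control against 53.0 and 62.1 FPKM in eKD2, without overlap, and RD-ES held 60.6 and 60.1 against 45.6 and 62.5 FPKM. RRM1, the large reductase subunit, read 152 and 125 against 106 and 128 FPKM in SK-N-MC, with overlap. In RD-ES it read 232 and 243 against 185 and 224 FPKM, with both eKD2 libraries lower. Its log2 fold changes were alike, -0.24 ± 0.15 in SK-N-MC and -0.22 ± 0.15 in RD-ES. Thymidylate synthase TYMS was at 196 and 199 FPKM in control against 186 and 188 FPKM in eKD2. It shares exon bases with ENOSF1 on the other strand.

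Taking the order of libraries in both lines, 8 genes had both eKD2 libraries below both controls in each line: GINS4, MCM3, MCM5, MCM6, MCM7, ORC1, POLA2 and RPA2, against 4.03% of all genes tested. For 9 genes eKD2 was below in SK-N-MC and above in RD-ES: CHAF1A, GMNN, ORC2, ORC4, ORC5, POLA1, POLD3, PRIM1 and RFC1, against 6.69% of all genes tested. For 1, GINS1, the order was the reverse, against 3.55%, and none of the 49 was above in both lines, against 5.64%. The lines were on opposite sides for 10 genes in all, against 10.2% of all genes tested. The first set holds 4 of the 6 ring subunits, and the second holds 4 of the 9 licensing genes and 2 of the 4 genes of polymerase alpha-primase. The size of each set depends on how many of the 49 lay below or above in each line. These were 34 and 4 in SK-N-MC and 12 and 12 in RD-ES. The sets were formed after the values were seen and were not tested as groups.

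The lines also differed before any enhancer was targeted, and this comparison uses the same control libraries as those above. In control cells, 18 of the 49 genes were lower and 16 higher in SK-N-MC than in RD-ES at an adjusted p under 0.05, where 26.4% of all genes tested were lower and 31.4% higher. Scaling libraries to the same median moved the median of the 49 genes from 0.0071 to -0.14, and the counts were then 21 and 9. Without SK-N-MC control library 2 they were 11 and 7, without SK-N-MC control library 1 they were 11 and 12, without RD-ES control library 1 they were 15 and 9, and without RD-ES control library 2 they were 13 and 10. MCM10 differed most, at 11.1 and 11.7 FPKM in SK-N-MC and 32.5 and 28.6 FPKM in RD-ES, a log2 fold change of -1.35 ± 0.13 (adjusted p = 0.000305). ORC2 was on the other side, at 87.1 and 85.9 against 35.4 and 35.0 FPKM, a log2 fold change of 1.27 ± 0.062 (adjusted p = 3.1e-05).

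Subunits of a single complex lay on opposite sides. Within ORC, ORC1 and ORC6 were lower in SK-N-MC, with log2 fold changes of -0.98 ± 0.080 and -0.94 ± 0.070 (adjusted p = 0.00018 and 0.000137), while ORC2 was higher. RFC4 and RFC1 were higher in SK-N-MC, at 1.05 ± 0.14 and 0.84 ± 0.069 (adjusted p = 0.00141 and 0.000183), whereas RFC5 was lower, at 57.2 and 61.2 against 86.3 and 92.4 FPKM. RPA2 and FEN1 were lower, at -0.98 ± 0.060 and -0.86 ± 0.10 (adjusted p = 6.51e-05 and 0.000718), and POLE2 was higher, at 0.86 ± 0.11 (adjusted p = 0.00112).

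**Figure D4:**
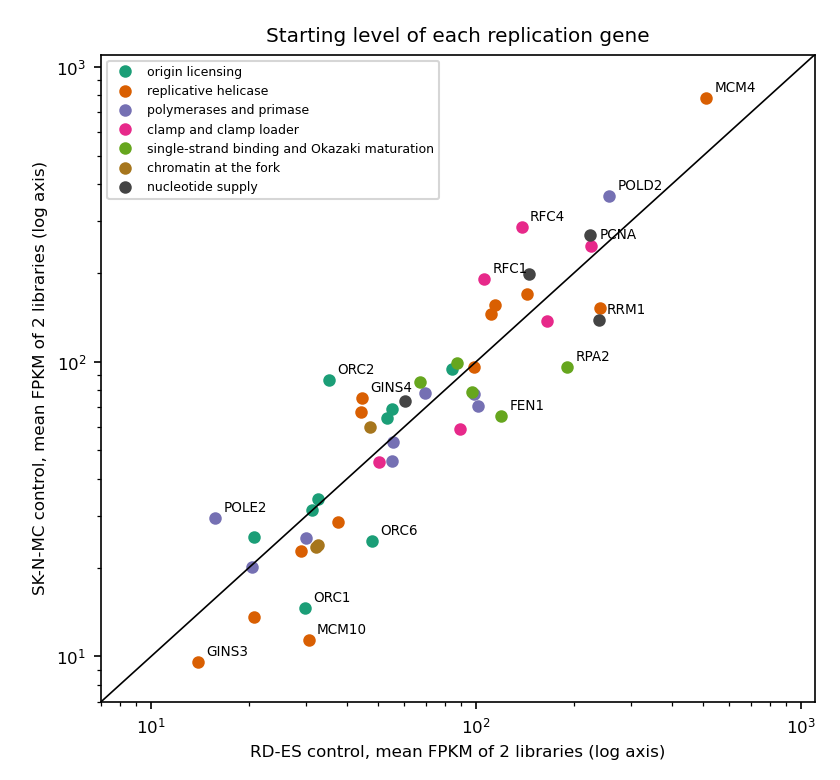
Mean FPKM of the 2 control libraries of each gene in RD-ES (horizontal) and SK-N-MC (vertical), both on log axes, colored by complex, with the line of equal levels. MCM10, ORC1, ORC6, RPA2 and FEN1 lie below the line and ORC2, RFC4, RFC1 and POLE2 above it.

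The changes in eKD2 were then set beside the promoter letters. Among the 43 genes with a window, the median log2 fold change in SK-N-MC was -0.18 for the 20 with an E2F form and -0.25 for the 23 without, and in RD-ES it was -0.031 and 0.032. The ranges overlapped almost fully. With an E2F form, SK-N-MC values ran from that of RFC3, at -0.43, to that of PCNA, at 0.11. Without one they ran from that of CHAF1B, at -0.45, to that of ORC6, at 0.15. The printed windows were chosen with these changes known, so they add nothing to this comparison. Of them, MCM6, POLA2 and RFC3, with E2F forms, and CHAF1B and RRM2, without, lay lower in SK-N-MC eKD2, and PCNA did not. PCNA and MCM6 both hold E2F forms and CCAAT boxes.

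**Figure D5:**
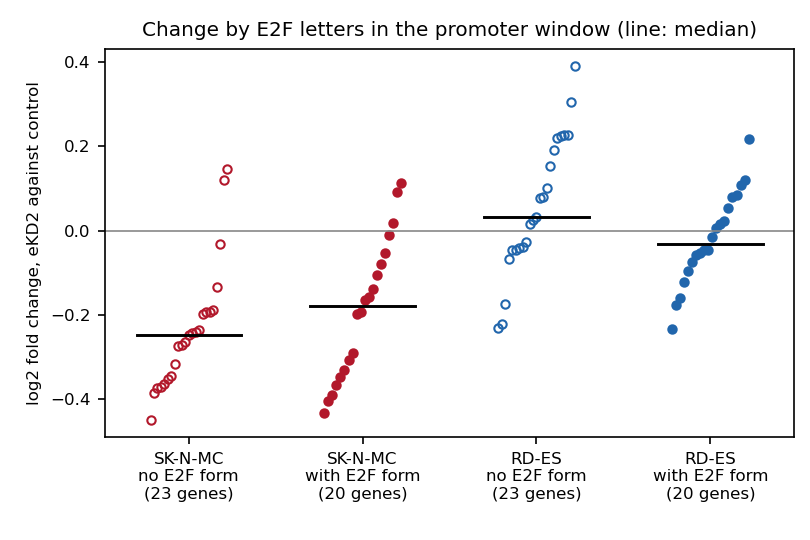
Log2 fold change of eKD2 against control for the 43 genes with a promoter window, split by whether the window holds an E2F form (filled, 20 genes) or not (open, 23 genes), in SK-N-MC and RD-ES, with the points of a column spread in rank order and a line at the median. The columns of a line overlap, with medians of -0.18 and -0.25 in SK-N-MC.

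Genes that work around the same machinery were counted in the same fit, and none of the lists below had a gene past the adjusted test in SK-N-MC, in RD-ES or in the difference. In SK-N-MC, 51.1% of all genes tested were below 0. At an unadjusted p under 0.05, 7.29% of all genes tested were lower there and 5.71% higher. All 12 origin firing kinases and factors had lower means in SK-N-MC (1 of them with an unadjusted p under 0.05), with a median of -0.14. That gene was CDC7, the kinase that phosphorylates the MCM ring, at 56.0 ± 0.0308 FPKM in control and 46.4 ± 1.39 FPKM in eKD2 (SD, n = 2). Of the 20 other subunits of the replisome and its helpers, 11 were lower and 9 higher in SK-N-MC (4 and 1 of them with an unadjusted p under 0.05), with a median of -0.057. DSCC1, a subunit of the alternative clamp loader for cohesion, was at 21.1 ± 0.751 FPKM in control and 15.2 ± 1.59 FPKM in eKD2. The 12 other nucleotide enzymes split evenly, 6 lower and 6 higher, with a median of 0.012, and held CTPS1, the CTP synthase, at 207 ± 11.1 and 148 ± 10.5 FPKM (adjusted p = 0.107).

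The regulators and the mitotic genes were also lower on balance in SK-N-MC, by less than the replication genes. Of 19 E2F and pocket protein regulators, 13 had lower and 6 higher means, with a median of -0.12. At an unadjusted p under 0.05, 3 of the 19 were lower, beside 7.29% of all genes tested. E2F7, a repressor of E2F targets, was at 19.8 ± 1.58 FPKM in control and 14.0 ± 0.0618 FPKM in eKD2 (adjusted p = 0.152), and RBL1, the pocket protein p107, at 15.0 ± 0.141 and 11.7 ± 0.812 FPKM. Of 20 mitotic genes, 16 were lower and 4 higher, 4 of them lower with an unadjusted p under 0.05, with a median of -0.12. TPX2, a spindle assembly factor, was at 115 ± 3.47 and 83.3 ± 1.20 FPKM (adjusted p = 0.076). In RD-ES the median was 0.00081 for the firing factors, 0.0063 for the other replisome subunits, -0.082 for the other nucleotide enzymes and -0.051 for the E2F and pocket protein regulators. Without eKD2 library 1 the firing factors were at -0.023 and the other replisome subunits at 0.058. With all libraries, 14 of the 20 mitotic genes were lower in RD-ES, with a median of -0.078. Of these, 6 had an unadjusted p under 0.05, where 3.79% of all genes tested were lower at that p. The medians of the lists were not tested against that of the replication genes.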

How the data were processed

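RNA of 8 libraries, 2 for each of the 4 groups, was sequenced by the authors from poly-A RNA with a kit that does not mark strand. The authors checked reads with FastQC, aligned them with STAR to hg19 and deposited FPKM values per gene from Cuffnorm; whether Cuffnorm also scaled libraries to each other is not given in the sources used here. The authors tested counts with DESeq2, and counts were not used here. The deposited FPKM values of the 15175 genes that averaged 1 FPKM or more were put on the log2(FPKM + 1) scale and fitted with limma 3.58.1 (lmFit, then eBayes with a trend) in R 4.3.3, with 4 groups in 1 fit and Benjamini-Hochberg adjustment over all genes tested. Beside counts of the 49 genes with both eKD2 libraries beyond both controls, the share of all genes tested with that order is given. The fit was tested on simulated data.

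The 49 genes, their complexes and all other lists were chosen with earlier results of these data known, so counts and medians over lists carry no test. Every one of the 49 is named. Genes with an unadjusted p under 0.05 in either line or in the difference, and the highest-mean gene of each complex, have values in every library and their statistics, and at most 3 genes of each other list are named, those with the smallest unadjusted p in SK-N-MC. Promoter windows were read from RefSeq (GRCh38.p14), and none was matched for MCM4, MCM5, GINS4, POLD3, RPA2 and RPA3. In GENCODE annotation of hg19, 19 of the 49 genes share exon bases with a gene on the other strand. For 11 of them such a gene had a mean of 1 FPKM or more. These are CHAF1A, GINS1, GINS2, MCM7, ORC4, PRIM1, RFC4, RFC5, RPA1, RPA3 and TYMS. Reads from the shared bases cannot be told apart. Alternatives were a pseudocount of 0.1, no filter, median scaling, quantile normalization, each line alone, no trend, the replicate number as a block and each library left out.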

Additional observations from a re-analysis of the deposited data

Results flagged for a closer look

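For 10 genes the eKD2 libraries lay on opposite sides of the controls in the lines, every library of one line moving one way and every library of the other line the other way, an order that 10.2% of all genes tested showed. The difference between the eKD2 changes, SK-N-MC minus RD-ES on the log2 scale, was tested as an interaction in limma and passed the adjusted threshold for none of the 10. Among the licensing genes it was -0.53 for GMNN, -0.44 for ORC2, -0.58 for ORC4 and -0.59 for ORC5. It was -0.42 for POLA1, -0.44 for POLD3, -0.46 for PRIM1, -0.42 for RFC1 and -0.44 for CHAF1A. These 9 were lower in SK-N-MC eKD2 and higher in RD-ES eKD2. GINS1, at 0.21, had the reverse order. The count of 10 also depends on how many of the 49 genes lay below or above the controls in each line, and it was not tested.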

How the results depend on the processing

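No gene of the 49 passed the adjusted test for an eKD2 change or for its difference between lines under any alternative, the lowest adjusted p being 0.0643 in SK-N-MC, 0.129 in RD-ES and 0.114 for the difference. Genes past the threshold among all tested numbered 49 in SK-N-MC, 52 in RD-ES and 37 for the difference, and 118, 79 and 66 without the filter on low values, which tests more genes. With each line fitted alone they numbered 13 and 1. Over all genes tested, deviations of libraries with the same replicate number were only weakly correlated (-0.021 to 0.064). Among the 49, LIG1 and CDT1 were higher in library 2 of every group. ORC3 and ORC5 were higher in library 1 of every group, and MCM4 had no shared order. Whether the replicate numbers pair the libraries was not settled, and the main fit did not pair them. With the replicate number as a block, genes past the threshold numbered 5, 11 and 7. In that fit 7 of the 49 were higher in RD-ES at an unadjusted p under 0.05, and the block changed no call of the 49. Leaving out 1 library gave 12 to 76 genes in SK-N-MC, 27 to 71 in RD-ES and 54 to 81 for the difference. Of the 49, those higher in SK-N-MC at an unadjusted p under 0.05 numbered 2 without the filter and 0 to 1 with 1 library left out. In RD-ES those lower numbered 7 under median scaling, 1 with the line alone, 1 with no trend and 1 to 3 with 1 library left out, and those higher numbered 1 under median scaling, 1 with the line alone and 1 to 6 with 1 library left out. For the difference, 10 to 17 were lower and 0 to 3 higher with 1 library left out. Between control cells, leaving out 1 library gave 11 to 18 lower and 7 to 16 higher, and median scaling gave 9 higher. The median of the 49 under median scaling was -0.064 in RD-ES, -0.14 for the difference and -0.14 between control cells. With 1 library left out, it ran from -0.27 to -0.22 in SK-N-MC, from -0.046 to 0.028 in RD-ES, from -0.29 to -0.18 for the difference and from 0.0071 to 0.13 between control cells. Signs turned with 1 library left out for POLD2 in SK-N-MC (-0.15 to 0.091) and in RD-ES for MCM4 (-0.099 to 0.10), PCNA (-0.13 to 0.033) and RRM2 (-0.032 to 0.19), and for MCM4 in RD-ES under median scaling (-0.070). The cause was not tested. With 2 libraries a group and no read counts, the depth behind single values is unknown.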
